A study of Caenorhabditis elegans with 4 samples.

Results

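The regions described here are the binding sites of the nuclear hormone receptor NHR-10 that lie on the arms of 4 autosomes of Caenorhabditis elegans. They are the peaks of the combined list on chromosomes II, III, IV or V whose midpoint falls in the first 25% or the last 25% of the chromosome span. Of the 1235 combined peaks, 272 (22.0%) met this rule, against 570 in the centres of the same chromosomes, the middle 50% of each span. The single libraries held 117 arm peaks among 525 in replicate 1 and 127 among 593 in replicate 2 (mean 122 ± 7.07 SD, n = 2). The rule uses position alone and no q-value, width or replicate.

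Binding was mapped by chromatin immunoprecipitation and sequencing (ChIP-seq) in whole hermaphrodites of strain OP239 at L4, the larval stage before adulthood. The strain is an unc-119(ed3) mutant that carries the bombarded transgene wgIs239, a recombineered copy of nhr-10 fused to TY1, EGFP and FLAG tags with unc-119 as the rescue marker. All 4 samples, 2 anti-GFP ChIP replicates and 2 inputs, share this genotype, stage and a growth temperature of 20 °C. No ChIP of another strain, stage or factor is compared here. The groups follow the sample titles; the description fields of the ChIP samples read as input DNA instead. Both genes of the transgene, nhr-10 (CELE_B0280.8) and unc-119 (CELE_M142.1), are on chromosome III, and whether either carries a peak was not determined.

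Nuclear hormone receptors are transcription factors with a zinc-finger DNA-binding domain, and many of them respond to small lipophilic ligands. Nematodes have a much enlarged family of them, and NHR-10 is known as a regulator of the breakdown of propionate, a short-chain fatty acid. Worm autosomes have a central domain of low recombination, rich in conserved and essential genes, and 2 arms with more recombination, more repeats and more rapidly evolving gene families. The arms are also where the chromosomes meet the nuclear envelope. Arms here are defined by span and not by recombination rate.

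Positions are on WormBase WS180, counted from 1. The span of a chromosome runs to its last peak end in any list, at 15230109 bp on II, 13764067 bp on III, 17472430 bp on IV and 20778489 bp on V. The last peak of each right arm therefore lies at the end of the span by construction. No genome or gene annotation of this build was used, so the regions are given by position, without the genes or bases in them. Each peak carries the authors' q-value, and no height, fold enrichment or read count stands beside it. Sequencing depth is unknown. Separate cultures are not stated for the replicates, so differences between them may be technical. Tests below count peaks as independent, which close neighbours are not, and intervals cover only the counting of peaks.

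The 8 arms differed widely in how many peaks they held. The left arm of chromosome II held 7 combined peaks, or 1.84 per Mb (95% exact Poisson interval 0.739–3.79), the lowest density of all 8 arms. Its right arm, of the same length of 3.81 Mb, held 49 peaks, or 12.9 per Mb (9.52–17.0), and the centre of II held 16.0 per Mb. The left share on II was therefore 12.5% (95% exact interval 5.18–24.1%), which differed from 50% (exact binomial test, two-sided, p = 2.98e-08 adjusted over 4 chromosomes). With peaks linked by gaps under 5000 bp merged into 1, it was 16.3% (7 left and 36 right, exact binomial test, adjusted p = 3.59e-05). Both libraries showed the same imbalance. Replicate 1 had 3 peaks on the left arm of II and 21 on the right (exact binomial test, adjusted p = 0.00111), and replicate 2 had 4 and 27 (exact binomial test, adjusted p = 0.000136).

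The sparse stretch on II reached past the arm boundary. The first 30% of II held 10 combined peaks and the last 30% held 56. In replicate 1 these counts were 5 and 24, and in replicate 2 they were 5 and 29. The longest run without a peak in any arm also lay on the left arm of II, over 1131 kb at II:1247412-2378416. Next came 1066 kb on the right arm of V, at V:16593455-17659134, an arm with 33 peaks.

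The 7 peaks on the left arm of II can be listed in full. The best scored was II:3244794-3246328, 1535 bp wide and at rank 171 of the combined list (q = 3.39e-19). It had a q-value of 6.59e-10 in replicate 1 and 2.52e-09 in replicate 2. The next, II:2378417-2379164 at rank 375 (q = 1.17e-10), was also in both replicates (q = 1.01e-06 in replicate 1 and 4.70e-08 in replicate 2). These were the only peaks of this arm found in both libraries. II:848528-849101 (rank 382, q = 1.51e-10) and II:2973863-2974431 (rank 500, q = 1.04e-08) were in replicate 2 alone, and II:221094-221937 (rank 1116, q = 7.42e-05) was in replicate 1 alone. II:1246537-1247411 (rank 870) and II:1233722-1234060 (rank 1012) were in neither, and 12476 bp separated them. No peak of this arm had a neighbour closer than that, and II:221094-221937 was the most isolated of all 272 arm peaks, 626590 bp from the nearest other peak.

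Chromosome III leaned the same way in the combined list. Its left arm held 18 peaks (5.23 per Mb, 3.10–8.27) and its right arm 43 (12.5 per Mb, 9.04–16.8), a left share of 29.5% (18.5–42.6%, exact binomial test, adjusted p = 0.00374). The single libraries had the same direction and did not pass. They held 13 and 24 peaks in replicate 1 (exact binomial test, adjusted p = 0.198) and 11 and 23 in replicate 2 (exact binomial test, adjusted p = 0.115). Of the 18 peaks on the left arm of III, 9 were in both replicates (50.0%, 95% Wilson interval 29.0–71.0%), the highest share among the arms. The share was 31.2% over all arms and 32.5% in the centre of III. The interval of the left arm covered both values, and the differences were not tested.

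Chromosomes IV and V did not pass. On IV the left arm held 49 peaks (11.2 per Mb) and the right arm 37 (8.47 per Mb), a left share of 57.0% (45.9–67.6%, exact binomial test, adjusted p = 0.314). In the libraries the arms of IV were closer, at 16 and 16 peaks in replicate 1 and 16 and 18 in replicate 2. Of the 49 left-arm peaks on IV, 32 (65.3%, Wilson interval 51.3–77.1%) were in neither replicate. The share was also high elsewhere on IV, at 20 of 37 (54.05%) on the right arm and 81 of 146 (55.5%) in the centre. The interval of the left arm covered both values, and the differences were not tested. When the span was counted from the first peak on the chromosome instead of from position 1, a setting chosen after seeing the data, the left share on IV was 62.1% and passed (exact binomial test, adjusted p = 0.0313). On V the arms held 36 and 33 peaks (6.93 and 6.35 per Mb), a left share of 52.2% (39.8–64.4%, exact binomial test, adjusted p = 0.810).

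**Figure D1:**
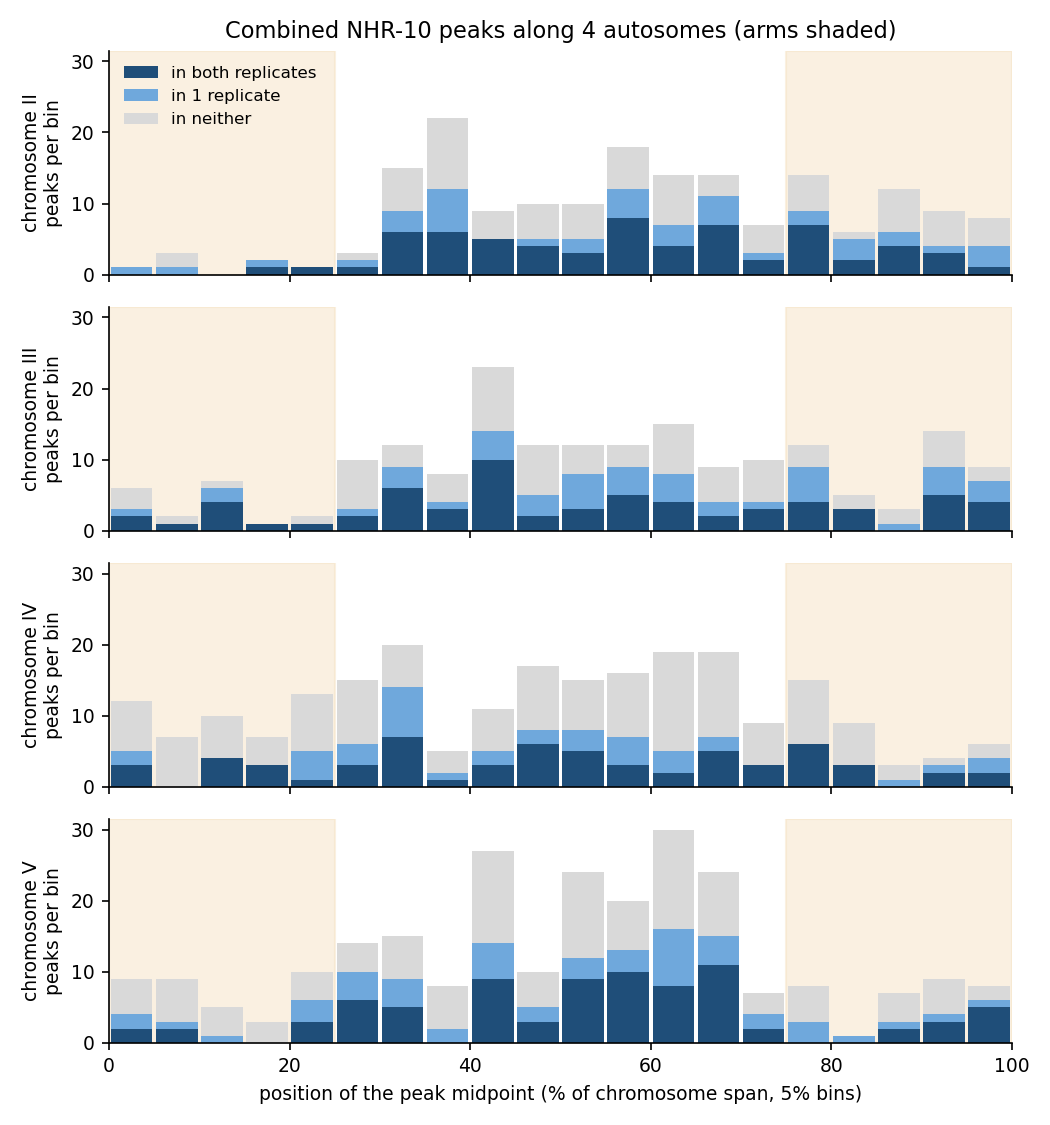
Combined peaks per 5% bin of the chromosome span (x axis, % of span) on II, III, IV and V, stacked by whether the peak was found in both replicates, in 1 or in neither; arms are shaded. The first 30% of II holds 10 peaks, against 56 in its last 30%.

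Over the 4 chromosomes together, 110 arm peaks lay on the left and 162 on the right (left share 40.4%, 34.6–46.5%, exact binomial test, two-sided, p = 0.00193). The left share was 36.8% in replicate 1 (exact binomial p = 0.00532) and 33.9% in replicate 2 (exact binomial p = 0.000347). The pooled value rested on chromosomes II and III. Without II it was 47.7% (exact binomial p = 0.540) and without III 43.6% (exact binomial p = 0.0732). These shares count the span from position 1 to the last peak end. Left arms therefore include a stretch before their first combined peak, from 155.2 kb on V to 344.4 kb on III. Right arms end at a peak by construction. Counting from the first peak instead was a setting chosen after seeing the data. It gave 122 left and 159 right arm peaks (left share 43.4%, exact binomial p = 0.0316). The chromosomes were also compared with each other in pairs, a test added after the counts were seen. The left share of II differed from that of IV in the combined list (Fisher's exact test, adjusted over 6 pairs, p = 4.27e-07), in replicate 1 (adjusted p = 0.0259) and in replicate 2 (adjusted p = 0.0204, the same Fisher's exact test). It differed from that of V in the combined list (adjusted p = 1.06e-05, Fisher's exact test) and did not pass in the libraries (Fisher's exact test, adjusted p = 0.0729 and 0.0528). II and III differed in the combined list at an adjusted p of 0.049 by Fisher's exact test, and did not pass in either library (Fisher's exact test, adjusted p = 0.148 and 0.162). In the same way III differed from IV (Fisher's exact test, adjusted p = 0.00268) and from V (Fisher's exact test, adjusted p = 0.0185) in the combined list, and neither pair passed in the libraries (Fisher's exact test, adjusted p from 0.348 to 0.525). IV and V did not pass in any list (Fisher's exact test, adjusted p = 0.627 in the combined list).

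Taken by chromosome, with both arms counted together, the arm peaks were spread closer to length. Against the share of arm length, II had a ratio of 0.909 (95% exact interval 0.704–1.14), III 1.10 (0.860–1.36), IV 1.22 (1.01–1.44) and V 0.821 (0.657–1.002). None passed after adjustment (exact binomial test, adjusted p from 0.0981 on IV and V to 0.469 on II and III). In replicate 1 alone III stood at 1.55 (exact binomial test, adjusted p = 0.0163) and V at 0.664 (exact binomial test, adjusted p = 0.0319). In replicate 2 they were at 1.31 (exact binomial test, adjusted p = 0.196) and 0.714 (exact binomial test, adjusted p = 0.137). The ratio of IV was 1.05 in replicate 1 and 1.03 in replicate 2, and that of II 0.906 and 1.08, none of which passed. All arms together had 8.09 peaks per Mb (7.16–9.11) and the centres 16.95 (15.6–18.4). Of the peaks on II to V, arms made up 32.3% in the combined list, with 32.0% for replicate 1 and 31.0% for replicate 2.

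**Figure D2:**
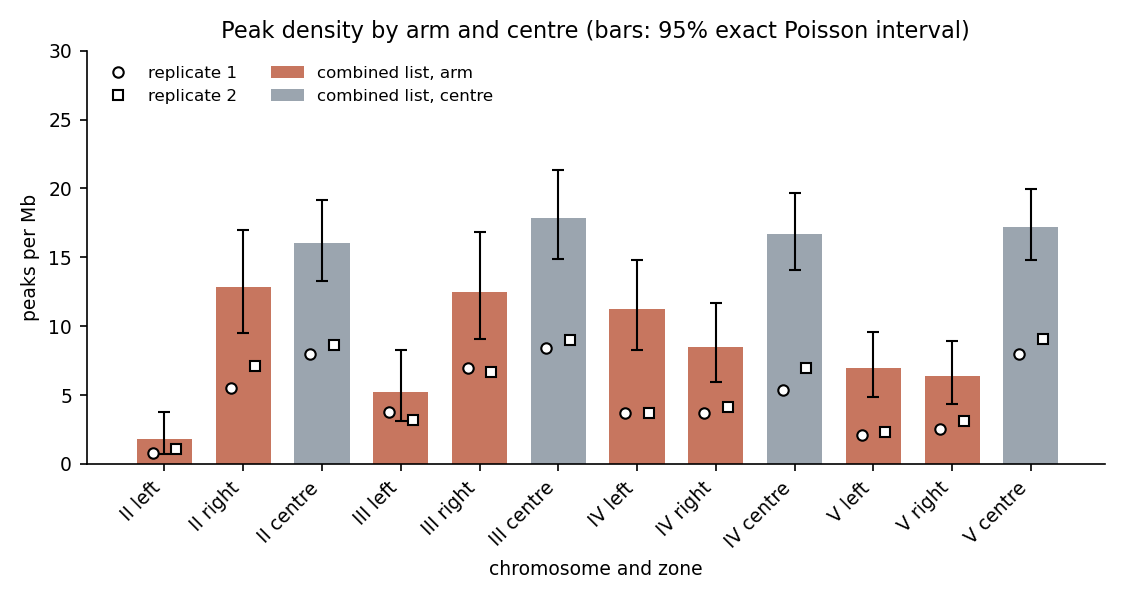
Peaks per Mb (y axis) in each arm and centre (x axis). Bars are the combined list with 95% exact Poisson intervals, and circles and squares are replicates 1 and 2. The left arm of II is lowest in all 3 lists, at 1.84, 0.788 and 1.05 peaks per Mb.

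Positions within the arms are given as counts, with no test. Of the 6 arm peaks among the 25 best combined peaks, 5 lay within the outermost 10% of the span. Of the 12 best arm peaks 6 did. This share of 10% was chosen after the positions were seen. The cut at 25 is the rank of the last of the 6 peaks. The next arm peak, at rank 57, lay at 76.4% of the span. Over all arm peaks the outermost 10% at each end held 116 of 272 (42.6%), close to its 40% share of the arm length, and 21 of the 45 arm peaks of ranks 1 to 247 (46.7%) lay there. Outer and inner parts of the arms, divided at 12.5% from the end, held 138 and 134 peaks. On IV they held 34 and 52, and on V 42 and 27. In replicate 1 the counts were 11 and 21 on IV and 16 and 8 on V, and in replicate 2 they were 13 and 21 and 20 and 8. On II they held 27 and 29, and on III 35 and 26. In replicate 1 these counts were 9 and 15 on II and 23 and 14 on III. In replicate 2 they were 11 and 20 on II and 19 and 15 on III.

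The best-scored arm peak was V:723844-729720, at rank 2 of the whole combined list and 3.50% of the way along V. At 5877 bp it was also the widest arm peak. Its main counterpart had −log10 q of 83.5 in replicate 1, at V:723816-728296, and 95.1 in replicate 2, at V:723875-728319, and it ranked second in both libraries. Each library called it as 2 peaks. Its nearest neighbour was V:730112-730690, 391 bp away at rank 421 and in replicate 2 alone, and V:731208-731900 followed at rank 91.

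Chromosome III had a strong peak toward each end. III:13462817-13465829 stood at rank 9 (q = 1.11e-78, 3013 bp), 298.2 kb from the last peak end on III, with −log10 q of 42.0 in replicate 1 and 38.4 in replicate 2. III:832791-836226 stood at rank 15 (q = 3.40e-70, 3436 bp), with 35.4 and 33.1. Both were isolated, with the nearest other peak 76417 bp and 166311 bp away. In these 2 peaks replicate 1 had the smaller q-value, while the top peak of V had it in replicate 2.

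Chromosome IV held a strong peak on each arm. IV:14032628-14034592 was at rank 18 (q = 4.97e-60, 1965 bp), with −log10 q of 25.4 in replicate 1 and 35.9 in replicate 2. IV:291441-296545 was at rank 19 (q = 3.80e-59) and 5105 bp wide, 1.68% of the way along the chromosome. The libraries broke this wide region up, into 2 peaks in replicate 1 and 3 in replicate 2, and the largest pieces had −log10 q of 20.3 and 20.0. Its best pieces ranked only 47 and 49 in their lists, lower than its rank in the combined list.

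V:19049085-19051960 completed the 6, at rank 25 (q = 3.73e-56, 2876 bp) with −log10 q of 23.6 in replicate 1 and 34.9 in replicate 2. The other peaks among the 12 best on the arms had ranks from 57 to 81. On II, the best arm peak was II:11633621-11637563 on the right arm (rank 57, q = 7.64e-39, 3943 bp), followed by II:13678167-13679139 (rank 80). The rest were IV:14610421-14613330 (rank 62), IV:13393026-13395839 (rank 67), V:1151116-1152113 (rank 75) and III:10758836-10759588 (rank 81). The last of these was the narrowest of the 12, at 753 bp. All 12 were found in both libraries.

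No difference between arms and centres passed in how often combined peaks were found again in the single libraries. A combined peak was counted as found when it overlapped a replicate peak by at least 1 bp. Of the 272 arm peaks, 85 were in both replicates (31.2%, 95% Wilson interval 26.0–37.0%), 21 in replicate 1 alone, 33 in replicate 2 alone and 133 in neither (48.9%, 43.0–54.8%). In the centres 187 of 570 were in both (32.8%, 29.1–36.8%) and 266 in neither (46.7%). The odds ratio of arms to centres was 0.931 for both (95% exact interval 0.673–1.28, Fisher's exact test, two-sided, p = 0.951 adjusted over 7 arm and centre tests) and 1.09 for neither (0.810–1.48, Fisher's exact test, adjusted p = 0.951). Directly between the libraries, 89 of 117 replicate 1 arm peaks (76.1%) overlapped replicate 2, against 78.3% in the centres, and 91 of 127 replicate 2 arm peaks (71.7%) overlapped replicate 1, against 69.96% in the centres (Fisher's exact test, adjusted p = 0.951 for each).

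Recovery followed rank on the arms as it did in the centres. By its name the combined list is of these same 2 libraries, so recovery is not a check by separate data. The combined list was divided by rank into 5 groups of 247. All 45 arm peaks of ranks 1 to 247 were in both replicates, as were 107 of 108 in the centres. The share fell to 31 of 59 (52.5%) on the arms and 61 of 119 (51.3%) in the centres for ranks 248 to 494, and to 7 of 54 (13.0%) and 18 of 119 (15.1%) for ranks 495 to 741. In the next group it was 2 of 53 and 1 of 108, and among ranks 989 to 1235 none of 61 arm peaks and none of 116 centre peaks was in both. No group passed (Fisher's exact test in each, adjusted p = 1 in all 5). Among ranks 989 to 1235, with no peak in both on either side, the test could show no difference. In the first group nearly all peaks were in both, and in the group before the last nearly none, so these tests could show little.

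**Figure D3:**
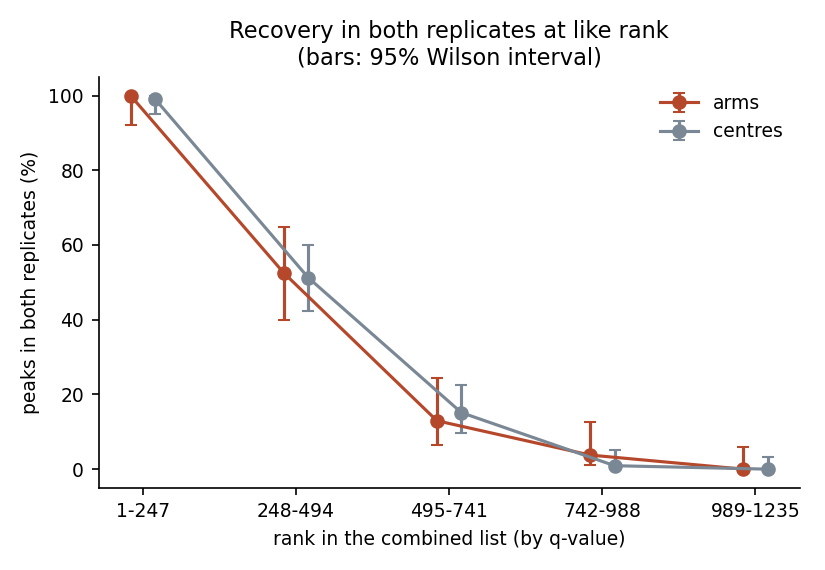
Share of combined peaks found in both replicates (y axis, %) in 5 groups of combined rank (x axis), for arms and centres of II to V with 95% Wilson intervals. Both fall from 100% and 99.1% in the first group to 0 in the last.

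Single members mark the edges of this pattern. The best-ranked arm peak not in both libraries was III:10985455-10986568 at rank 258 (q = 3.06e-14), which was in replicate 2 alone. The best-ranked in neither was IV:13390182-13391343 at rank 385 (q = 1.62e-10, 1162 bp), 290 bp from the weaker peak IV:13391634-13391929 (rank 783) and with IV:13388646-13389860 (rank 103) on its other side. The lowest-ranked arm peak in both was II:11545134-11545701 at rank 824 (q = 5.12e-06, 568 bp). In the other direction 5 replicate 1 arm peaks and 2 replicate 2 arm peaks overlapped no combined peak, all at rank 373 or lower of their lists. One pair of these overlapped each other, IV:14794088-14794598 in replicate 1 and IV:14793703-14794637 in replicate 2.

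Scores of the 85 arm peaks found in both libraries rose together across the libraries. For −log10 q of these peaks, Spearman's rho stood at 0.73 and Pearson's r at 0.96, against 0.73 and 0.83 over the 187 centre peaks. These values are across peaks of the same 2 libraries, leave out peaks missed in either, and Pearson's r on the arms includes the peak of V at 83.5 and 95.1. For the same 85 peaks median −log10 q was 14.6 in the combined list, and 6.97 and 7.10 in replicates 1 and 2. Replicate 2 had the smaller q-value for 52 of the 85 (61.2%), and in the centres for 111 of 187 (59.4%). The combined list had a smaller q-value than either library for all 85 arm peaks and for 186 of the 187 centre peaks.

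**Figure D4:**
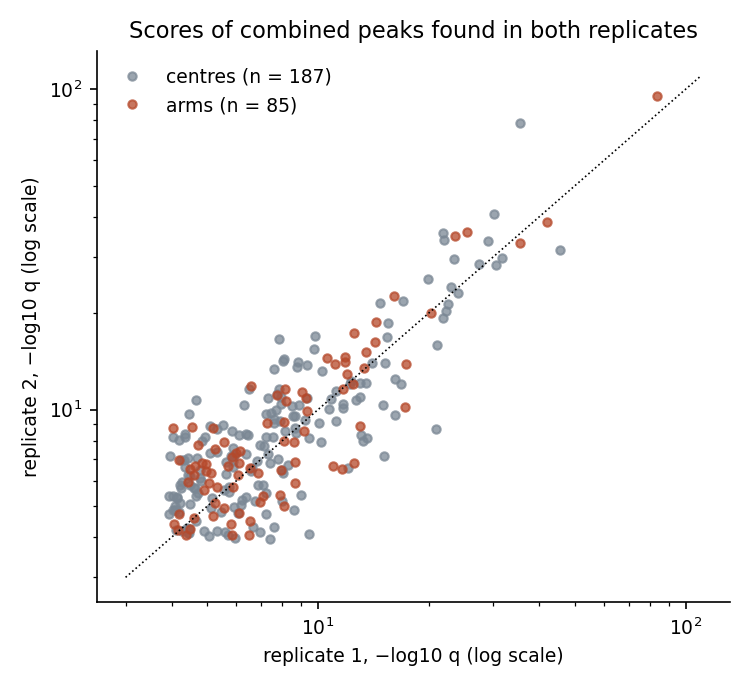
−log10 q in replicate 1 (x axis) and replicate 2 (y axis), both on log scales, for combined peaks found in both libraries; each point is 1 combined peak and the dotted line marks equal values. The arm peak at the upper right, at 83.5 and 95.1, is V:723844-729720.

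Medians and quartiles of width were close on arms and in centres. The median arm peak was 706 bp wide, with quartiles at 482 and 1092 bp and a range from 205 to 5877 bp, and the median centre peak was 707 bp wide, with quartiles at 482 and 1100 bp and a range from 47 to 9366 bp. On the arms 76 of 272 peaks (27.9%) were wider than 1000 bp and in the centres 160 of 570 (28.1%), an odds ratio of 0.994 (0.709–1.39, Fisher's exact test, adjusted p = 1). The median was 1127 bp for arm peaks found in both libraries and 533 bp for arm peaks in neither; the centres had 1195 and 532 bp. By arm, the median ran from 568 bp on the right arm of V to 883 bp on the left arm of III. Because density differed, peaks covered 0.721% of the arm length and 1.55% of the centres.

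The share of strong peaks did not pass either. Ranks 1 to 247 took 45 of 272 arm peaks (16.5%, 12.6–21.4%) and 108 of 570 centre peaks (18.9%), an odds ratio of 0.848 (0.564–1.26, Fisher's exact test, adjusted p = 0.951). By arm the share ran from 4 of 49 (8.16%) on the left arm of IV to 5 of 18 (27.8%) on the left arm of III and 10 of 37 (27.0%) on the right arm of IV, with no test of these differences. Left and right arms were compared in 5 such measures after the values were seen, and none passed. The largest difference was in the share found in neither replicate, 56.4% of the 110 left-arm peaks against 43.8% of the 162 right-arm peaks (Fisher's exact test, p = 0.0484, adjusted p = 0.242 over 5 measures).

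The share of arm peaks with a close neighbour was below that in the centres, and the difference did not pass after adjustment. Of the 272, 127 (46.7%, 40.8–52.6%) had another peak within 5000 bp, measured between edges, against 312 of 570 in the centres (54.7%, 50.6–58.8%). The odds ratio was 0.725 (0.536–0.978), and Fisher's exact p of 0.0324 was 0.227 after adjustment. Within replicate 1 the shares were 33.3% on the arms and 47.4% in the centres (Fisher's exact p = 0.0127, adjusted 0.0892). Within replicate 2 they were 35.4% and 47.7% (Fisher's exact p = 0.0238, adjusted 0.167). The difference passed with neighbours within 10000 bp (52.2% against 62.1%, Fisher's exact test, adjusted p = 0.0491) and with the outer 30% taken as arms (46.1% against 56.4%, Fisher's exact test, adjusted p = 0.0283). It did not pass with neighbours within 2000 bp (30.5% against 40.2%, Fisher's exact test, adjusted p = 0.0527). Nor did it pass with the outer 20% taken as arms (47.2% against 53.6%, Fisher's exact test, adjusted p = 0.853). With any 1 chromosome left out it did not pass either (Fisher's exact test, adjusted p from 0.122 to 0.951). By rank group the direction was not uniform, and these shares were not tested. Among ranks 742 to 988 the share was 49.1% on the arms and 40.7% in the centres. Among ranks 989 to 1235 it was 31.15% and 50.0%. In the other rank groups the arms were below the centres. The arms also had fewer peaks per Mb, and the part of density in this difference was not tested. The median gap to the nearest peak was 6961 bp on the arms and 3458 bp in the centres, and the lower quartiles were 1119 and 810 bp.

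**Figure D5:**
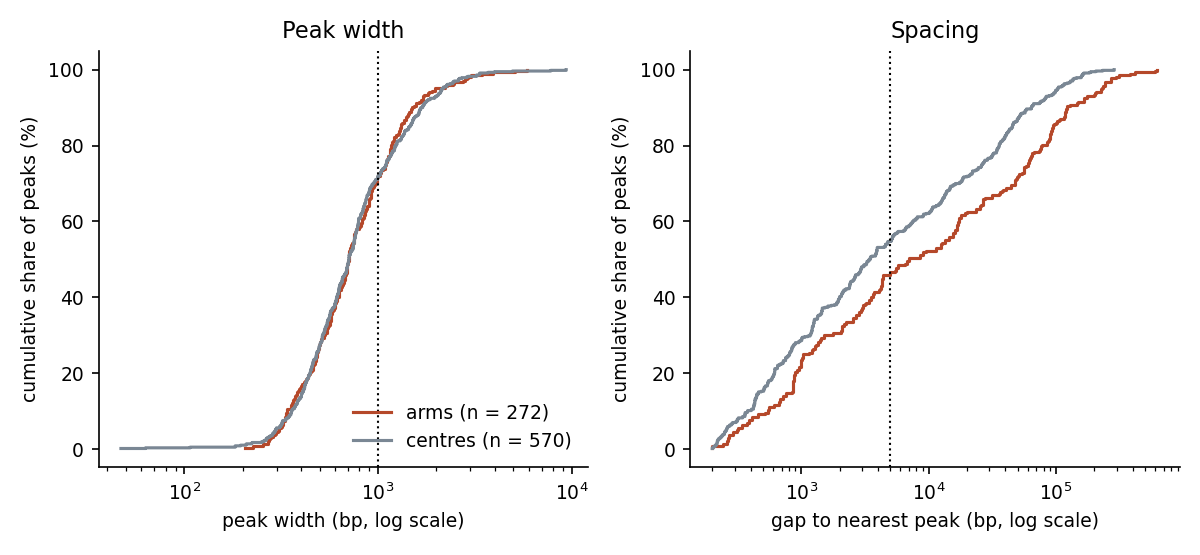
Cumulative share of peaks (y axis, %) by width (left) and by the gap between a peak and its nearest neighbour (right), on log scales, for 272 arm peaks and 570 centre peaks. The median width is 706 bp on the arms and 707 bp in the centres, while the median gap is 6961 bp on the arms and 3458 bp in the centres.

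The arm peaks fell into 195 groups linked by gaps under 5000 bp, of which 145 (74.4%) were single peaks, 33 were pairs and 11 held 3 peaks. In the centres 258 of 377 groups (68.4%) were single, 70 were pairs and 32 held 3 peaks. No group crossed an arm boundary. Of the 195 arm groups 6 held 4 or more peaks, against 17 of 377 groups in the centres. All 6 were on III and IV. On III these were III:344375-357623 with 4 peaks, III:1920727-1926896 with 4, and III:12606861-12617402 with 5.

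On IV there were 3 groups of 5 peaks each. IV:4014557-4028680 spanned 14124 bp, with a best rank of 185, and overlapped 1 peak in replicate 1 and 3 in replicate 2. IV:13313999-13326472 spanned 12474 bp, with a best rank of 319, and overlapped 2 peaks in each library. IV:13388646-13395839 was the tightest, with 5 peaks in 7194 bp and gaps of 290 to 419 bp. Its outer peaks were at ranks 67 and 103 and in both libraries, while the 3 between them were in neither. Each library held 3 peaks in that stretch.

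The peaks nearest the 25% and 75% lines show what the rule separates. The 8 arm peaks nearest the boundaries lay 5.51 to 565 kb inside, with ranks from 171 to 1098, and 3 of them were in both libraries. The 8 centre peaks nearest the boundaries lay 14.3 to 349 kb outside, with ranks from 28 to 1210, and 3 were in both. The nearest pair lay on IV, with IV:13109588-13110082 inside (495 bp, rank 1098) and IV:13077735-13078009 outside (275 bp, rank 1026), both in neither library. The strongest peak just outside was III:10214270-10217502, at rank 28 (3233 bp).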

How the data were processed

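The 3 files were peak lists of ChIP replicate 1, of ChIP replicate 2 and of both combined, by its name; values of the inputs were not used here. Per the file headers, positions are on WormBase WS180, and per the source column of the deposited files the peaks were called with PeakSeq. Neither the control library nor the aligner, filters or method of combining is given in the sources used here. A peak has a q-value deposited by the authors, used here to rank peaks within a list (ties by width) or as −log10 q. Per the labels' protocols, worms were fixed with 2% formaldehyde and 10% of the supernatant was kept as input.

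Overlap was at least 1 bp, and where a peak met several, its score was compared with that of largest overlap. Shares have 95% Wilson intervals, binomial tests exact (Clopper-Pearson) intervals and densities exact Poisson intervals. Fisher's exact tests of arms against centres were adjusted by Benjamini-Hochberg over the 7 arm and centre comparisons, and the threshold was 0.05. For these, a p-value from an alternative setting or a single library was adjusted together with the main p-values of the other comparisons. Other tests were adjusted over their own sets, of 5 rank groups, 6 chromosome pairs, 5 left and right measures or 4 chromosomes. Pooled left shares were not adjusted. The code was checked on simulated data. The members and comparisons were chosen with earlier results of these data known. Regions were named by rule: the 12 best arm peaks, the best of each arm, the widest, groups of 4 or more, the peak nearest each end, the best in neither replicate and those nearest the boundaries. Others named, such as the 7 on the left arm of II, were chosen after their values were seen. Tests used scipy 1.17.1 with numpy 2.4.6 under Python 3.11.15, and figures matplotlib 3.10.9.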

Additional observations from a re-analysis of the deposited data

How the results depend on the processing

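The low left share on II kept its direction and call under all 8 alternatives (10.5% to 16.3%). The pooled left share did so under 10 of 12, and did not pass without II (47.7%) or III (43.6%). On III the left share no longer passed with the outer 20% as arms (34.0%), in the better 50% of the list (36.1%), in peaks of both replicates (36.0%) and in single libraries (32.4% to 35.1%). On IV it passed with the span from the first peak (62.1%) and turned in peaks of both replicates (45.8%); single libraries gave 47.1% to 50.0%. On V it turned in peaks of both replicates (41.2%) and in each library (42.9% to 45.8%). In single libraries the chromosome ratios were 0.906 to 1.08 for II, 1.31 to 1.55 for III, 1.03 to 1.05 for IV and 0.664 to 0.714 for V. Arm minus centre differences that never passed changed sign as follows, in percentage points. The share in neither replicate was at -0.0993 with reciprocal overlap of 50% and -4.86 in the better 50%, against 2.23. With midpoints within 200 bp, the share in both was 1.74 and that of replicate 1 in replicate 2 was 4.67. The share of replicate 2 in replicate 1 was -5.96 in the better 50%. The share wider than 1000 bp was 1.18 and 0.363 with the outer 20% and 30% as arms and 4.86 in the better 50%. The share with a neighbour passed with the outer 30% (-10.2) and within 10000 bp (-9.90), against -8.05. It did not pass with the outer 20% (-6.4), within 2000 bp (-9.66) or with any 1 chromosome left out. The cause was not tested. Settings that leave out chromosomes, use the first peak or keep peaks of both replicates were chosen after seeing the data. No paired analysis was possible because no values of the inputs were used, so no groups with shared replicate numbers were compared. Limits from depth cannot be stated, as the lists hold no read counts.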

Other observations

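The peak nearest the start of each span was weak on II (II:221094-221937, rank 1116), III (III:344375-344890, rank 953) and V (V:155196-155512, rank 1183), and stronger on IV (IV:274187-274834, rank 425, in both replicates). The last peaks of the right arms, which set the spans, had ranks from 489 to 625. These were II:15229468-15230109 in neither replicate, III:13763086-13764067 and IV:17471512-17472430 in replicate 2 alone, and V:20776586-20778489 in replicate 1 alone. None of these 4 last peaks was in both libraries. The peak on II, at rank 489, belongs to ranks 248 to 494, where 31 of 59 arm peaks were in both. The others belong to ranks 495 to 741, where 7 of 54 arm peaks were.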
